A study of Mus musculus with 112 samples.

Results

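AKXD subline 18 is represented by 3 mammary tumours, each hybridised to both Affymetrix array types used, MOE430A (array A) and MOE430B (array B). They make up 6 of the 112 arrays and 3 of the 56 tumours, and were taken by their labelled subline and set against the tumours of the other sublines, each array type on its own. The AKXD sublines are recombinant inbred mice derived from AKR/J and DBA/2J, and the labels give the background of each mouse as AKXD x PyMT. Every tumour arose spontaneously from the same transgene, polyoma middle T antigen behind the mouse mammary tumour virus promoter, MMTV-PyMT, which acts mainly in mammary epithelium. No subline lacked the transgene and none was treated, so there is no control group, and the age of the mice is not given in the sources used here. Tumours of a subline are labelled biological replicates and carry separate animal numbers. The p-values therefore measure how far subline 18 lies from the other sublines relative to the spread between tumours within a subline.

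Recombinant inbred sublines each carry a fixed mixture of the genomes of their founder strains, so a gene that differs between the founders can take one level in some sublines and another level in the rest. On short-probe arrays a sequence difference under the probes can change the reading as well as a difference in transcript abundance, and different probe sets of a gene can then disagree. Middle T antigen is a membrane-bound viral protein that recruits Src family kinases, phosphatidylinositol kinase and Shc, and it produces luminal-type mammary tumours in mice.

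Before the comparison, 4 arrays A and 3 arrays B that stood apart were left out. On array A these were the 3 tumours of subline 23, whose median correlations with the kept arrays were 0.948, 0.918 and 0.223, and tumour 3 of subline 25, at 0.868. On array B they were tumour 3 of subline 11 at 0.865, tumour 2 of subline 23 at 0.918 and tumour 3 of subline 25 at 0.858. This left 49 other tumours of 16 sublines on array A and 50 of 17 sublines on array B. Bacterial control probe sets measure RNA absent from mouse tissue. On array B their upper quartile was 4.75, 4.89 and 4.89 in tumours 1, 2 and 3 of subline 18. In the other kept arrays B it was 4.81 to 5.09 with a median of 4.95, so tumour 1 was the lowest. By median correlation none of the arrays of subline 18 stood apart, at 0.988 to 0.990 on array A and 0.987 to 0.990 on array B. The defining markers of luminal epithelium were present in its tumours, with Epcam at 13.08, 13.18 and 13.07, Krt18 at 12.92, 13.09 and 12.77 and Krt8 at 12.73, 12.79 and 12.51 in tumours 1, 2 and 3, within the range of the other tumours. All values are log2 RMA expression values, and a difference is the mean of subline 18 minus the mean of the other sublines, with its standard error.

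Few transcripts set subline 18 apart, and Suz12 led them. On array A, limma called 11 of 22626 probe sets at an adjusted p under 0.05, which is 0.0486% of those tested, with 5 higher (0.0221%) and 6 lower (0.0265%). They belonged to 7 genes: Suz12, Vamp3, Paip1, Pdxdc1, Adi1, Uqcr10 and Pop4. Of the 26 probe sets that these genes have on both arrays, 15 were not called. On array B a single probe set, 1459253_at, was called of 22511 (0.00444%), and the annotation gives no gene for it. In the same fits the other sublines had 0 to 796 calls on array A and 0 to 824 on array B, so that subline 18 ranked 6 of 17 and 11 of 18. The 824 were those of subline 23, with 2 kept tumours. Its tumour 1 had the lowest median correlation of the kept arrays B, 0.969. At an unadjusted p under 0.05, 867 probe sets (3.83%) differed on array A and 1144 (5.08%) on array B. The median difference over all probe sets was -0.02 on array A and -0.01 on array B, and 42.8% and 43.1% of the differences were positive.

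These counts rest on a comparison in which only the spread within sublines enters the error. When the tumours were fitted as 2 groups, so that the spread between sublines entered too, limma called 5 on array A, and 0 on array B, where 929 had an unadjusted p under 0.05. With the 4 arrays A put back limma called 0, and 186 had an unadjusted p under 0.05. Leaving out tumour 1, 2 or 3 of subline 18 gave 5, 4 and 5 calls on array A and 1, 0 and 1 on array B. With scores of the adipocyte, skeletal muscle, T cell and B cell lists as covariates, the 11 probe sets of array A and the 1 of array B were again called.

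Suz12 encodes the subunit that holds Polycomb repressive complex 2 together, the enzyme complex that methylates histone H3 at promoters of silenced genes. Array A carries 6 probe sets for it, and in subline 18 they went in opposite directions: 2 were higher, 2 were lower and 2 were not called. On 1420022_s_at the 3 tumours read 7.02, 6.56 and 6.83, against 5.29 to 5.92 with a median of 5.58 in the 49 other tumours. The groups were separated by a gap, and the mean of subline 18 (6.80 ± 0.23, SD, n = 3) stood above that of the next subline, 20 (5.70 ± 0.06, SD, n = 3). The difference was 1.24 ± 0.07, a fold of 2.36, with an adjusted p of 1.28e-15 in limma. On 1449661_at the values were 5.78, 5.32 and 5.63, against 4.15 to 4.86 with a median of 4.58. Here too no other tumour reached the lowest tumour of subline 18, and the difference of 1.03 ± 0.10 had an adjusted p of 2.34e-08 in limma. All 49 other tumours lay under the upper quartile of the 27 bacterial control probe sets of their array, which measure RNA absent from mouse tissue. Raised to that level, they left subline 18 at least 1.49-fold higher. These were the 2 probe sets of array A on which the 3 tumours lay outside every other tumour, 0.00884% of those tested.

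On the lower pair of Suz12 probe sets subline 22 stood beside subline 18. On 1452364_at the tumours of subline 18 read 7.56, 7.39 and 7.73, against 7.72 to 9.03 with a median of 8.46 elsewhere, and on 1427253_s_at they read 8.27, 8.23 and 8.41, against 8.28 to 9.82 with a median of 9.15. In each case a single other tumour, from subline 22, fell within the range of subline 18. The differences were -0.91 ± 0.15 (adjusted p = 0.00134, limma) and -0.85 ± 0.14 (adjusted p = 0.00294, limma). Subline 22 was next in both orders, at 7.90 ± 0.15 and 8.58 ± 0.26 (SD, n = 3), while the sublines after it stood at 8.34 and 9.05 or higher. Subline 18 and subline 22 overlapped on both probe sets, and they were not tested against each other.

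The remaining Suz12 probe sets did not pass the test. On 1420021_s_at the tumours read 8.97, 9.06 and 9.13, against 9.04 to 10.25 with a median of 9.54. Its difference of -0.48 ± 0.14 leaned the same way as the lower pair, with an unadjusted p of 0.00147 and an adjusted p of 0.667 in limma. On 1420020_at the tumours read 7.78, 7.86 and 7.80 and the difference was 0.01 ± 0.07, near the middle of the order of sublines. Which part of the transcript each probe set reads was not tested. The plot of Suz12 by subline shows the 6 patterns side by side.

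**Figure D1:**
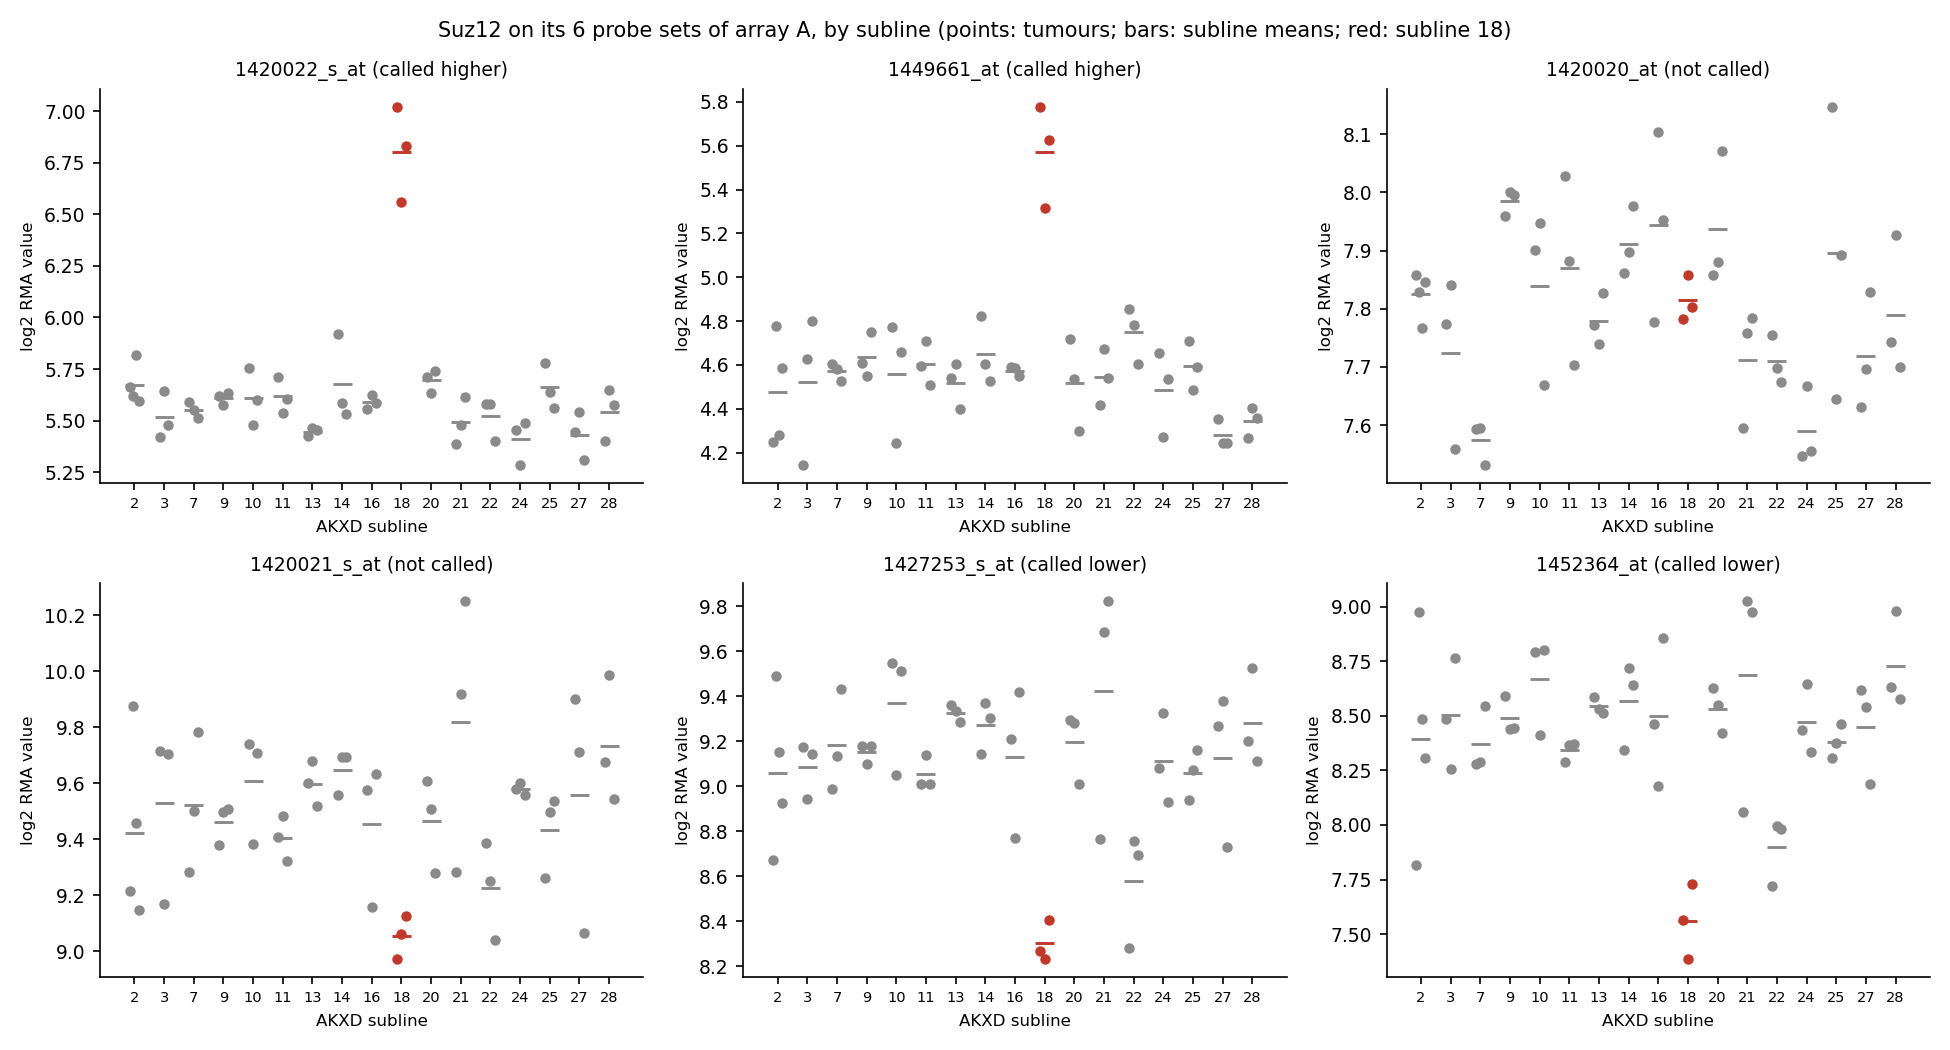
Log2 RMA value (vertical axis) of each kept tumour on the 6 Suz12 probe sets of array A, by AKXD subline (horizontal axis). Points are tumours, bars are subline means, and subline 18 is red. On 1420022_s_at and 1449661_at the 3 tumours of subline 18 lie above the 49 others, and on 1427253_s_at and 1452364_at they lie lowest together with 1 tumour of subline 22.

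Both higher Suz12 probe sets were called without any 1 of the 3 tumours, and in the 2-group fit at 2.32e-17 and 2.32e-09 (adjusted p, limma). With all arrays A their adjusted p was 0.179 and 1, and these were the highest over 27 alternatives each. The call of 1452364_at ended without tumour 2 (adjusted p = 0.122, limma), and that of 1427253_s_at without tumour 1 (0.0876) or tumour 2 (0.122). Both kept theirs in the 2-group fit, at 0.00527 and 0.0152. Over all 28 alternatives the adjusted p of the lower pair ran from 8.37e-09 and 2.61e-08 to 1.

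No other gene of Polycomb repressive complex 2 was called. Each of the 11 measured genes of that list was taken on its brightest probe set, Suz12 itself on 1420021_s_at. Of the 11 differences 6 were positive, with a median of 0.02. Ezh2, the methyltransferase of the complex, read 8.89, 8.87 and 8.83, against 8.44 to 9.46 with a median of 8.99. Its difference was -0.15 ± 0.13 (adjusted p = 0.999, limma). Among the 5 protein-coding genes on each side of Suz12 on chromosome 11, 8 were measured by 16 probe sets, and none was called. Utp6, a ribosome biogenesis factor, gave the smallest p of these in limma, at -0.22 ± 0.10 (adjusted p = 0.999).

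Vamp3, a vesicle membrane protein that drives fusion of recycling endosomes, was higher on 1 of its 5 probe sets. On 1437708_x_at subline 18 read 9.76, 9.65 and 10.07, against 8.83 to 9.80 with a median of 9.05. Its tumours were among the highest, and 3 other tumours reached them, 2 of subline 21 and 1 of subline 24. The difference was 0.71 ± 0.11 (adjusted p = 0.000659, limma), a fold of 1.63. The mean of subline 18 was 9.83 ± 0.22 and that of subline 21, the next, was 9.65 ± 0.18 (SD, n = 3 each), with overlapping ranges. The suffix _x_ marks a probe set with some probes that resemble other transcripts. The other 4 Vamp3 probe sets differed by 0.10 to 0.28, all positive and none called. Without tumour 3 the adjusted p on 1437708_x_at was 0.142, in the 2-group fit it was 0.0362, and over 28 alternatives it ran from 2.32e-07 to 0.56 in limma. None of 23 probe sets of the 9 measured neighbours of Vamp3 on chromosome 4 had an unadjusted p under 0.05.

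Paip1, a partner of poly(A)-binding protein that promotes translation initiation, was at the upper of 2 levels in subline 18. On 1425521_at its tumours read 6.06, 6.28 and 6.22, against 4.15 to 6.65 with a median of 4.46. The groups overlapped, since 10 of 49 other tumours reached the lowest tumour of subline 18, among them all 3 tumours of sublines 3 and 10. Sublines 10 (6.22 ± 0.22) and 3 (6.30 ± 0.30) had higher means than subline 18 (6.19 ± 0.11; SD, n = 3 each), the tumours of subline 20 read 5.69 to 6.27, and 11 sublines lay between 4.33 and 4.46. Tumours of sublines 2 and 27 were split between the levels. The difference from the mean of the others was 1.33 ± 0.23 (adjusted p = 0.00404, limma). As 36 of 49 other tumours were under the bacterial controls, the bound was at least 1.84-fold higher.

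A second Paip1 probe set, 1441955_s_at on array B, had the same 4 sublines on top, 10, 3, 18 and 20. Subline 18 read 5.79, 5.63 and 5.68, against 4.53 to 6.16 with a median of 4.90, and 10 of 50 other tumours reached it, again with all 3 of sublines 3 and 10. The difference of 0.63 ± 0.14 was not called (adjusted p = 0.254, limma). The probe set 1451740_at on array A differed by 0.20 ± 0.13 and 1456852_at on array B by -0.02 ± 0.06, and neither was called.

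Genes beside Paip1 on chromosome 13 were not called. Of 23 probe sets of 9 measured neighbours, 7 had an unadjusted p under 0.05, while the share over all probe sets was 3.83% for array A and 5.08% for array B, and 4 of the 7 read 1 transcript, 4833420G17Rik. The transcript 4833420G17Rik read 7.80, 7.65 and 7.98 on 1419635_at, against 7.61 to 8.77 with a median of 8.37, a difference of -0.48 ± 0.11 (adjusted p = 0.149, limma). Tmem267, which encodes a membrane protein, read 6.17, 6.03 and 6.35 against 5.75 to 7.53 with a median of 6.85, a difference of -0.63 ± 0.17 (adjusted p = 0.494, limma). Both lay in the lower part of the other tumours' range, while 1430220_at of 4833420G17Rik on array B had a positive difference, 0.27 ± 0.10 (adjusted p = 0.966, limma). Positive differences were also measured for Nim1k, a protein kinase, at 0.14 ± 0.06 (adjusted p = 0.966, limma), and for the chemokine Ccl28, at 0.20 ± 0.09 (adjusted p = 0.999, limma). Nim1k read 4.66, 5.04 and 4.73 against a median of 4.65, and Ccl28 on 1450218_at read 4.87, 5.45 and 4.82 against 4.83. For both, tumour 2 was the highest, and tumours 1 and 3 lay under the upper quartile of the bacterial controls of their arrays. The call of Paip1 itself ended without any 1 of the tumours of subline 18, at adjusted p values of 0.0622, 0.122 and 0.142 without tumours 1, 2 and 3. In the 2-group fit it was 0.999, and over 27 alternatives it ran from 3.92e-06 to 1 (limma).

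Pdxdc1, a protein with a pyridoxal-dependent decarboxylase domain, had 1 lower and 1 higher probe set among its 4 on array A. On 1419327_at the tumours of subline 18 read 7.45, 7.32 and 7.23, against 7.28 to 9.62 with a median of 9.36. Its mean of 7.33 ± 0.11 was the lowest, but sublines 10, 11, 25 and 16 stood next to it at 7.46, 7.51, 7.60 and 7.74, and 9 sublines lay between 9.35 and 9.50. Sublines 2, 20 and 24, at 8.46 to 8.92, had tumours at both levels. The difference was -1.49 ± 0.28 (adjusted p = 0.00914, limma), the largest in size among the calls of array A.

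The other called probe set of Pdxdc1, 1452705_at, ran in the opposite direction. Subline 18 read 9.00, 9.20 and 9.20, against 8.19 to 9.13 with a median of 8.43, and 7 other tumours reached its lowest tumour, 3 of them from subline 10. Sublines 10, 25, 16 and 11 followed it at 9.09, 8.96, 8.94 and 8.90, the same 4 that were low on 1419327_at. The difference was 0.56 ± 0.11 (adjusted p = 0.0243, limma). The other 2 probe sets differed by 0.24 ± 0.10 and 0.14 ± 0.07, and were not called. Both calls ended without any 1 tumour of subline 18, at 0.117, 0.161 and 0.335 on 1419327_at and at 0.101, 0.403 and 0.661 on 1452705_at. The higher probe set also lost its call without subline 3, 7, 9, 13, 14 or 28, with an adjusted p of up to 0.057. In the 2-group fit both stood at 0.999, and over 28 alternatives they ran from 8.81e-05 to 0.999 and from 0.00085 to 1 (limma).

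Adi1, the acireductone dioxygenase of methionine salvage, was lower on 1 of 3 probe sets. On 1438758_at subline 18 read 7.85, 7.54 and 7.73, against 7.66 to 8.98 with a median of 8.73. Its mean of 7.71 ± 0.16 was the lowest, followed by sublines 10, 11 and 25 at 7.76, 7.93 and 7.95 and by subline 16, whose tumours read 7.92 to 8.06. These are the 4 sublines that shared its Pdxdc1 level. Sublines 2 and 20 were split, and the other 10 stood at 8.67 to 8.84. The difference was -0.80 ± 0.13 (adjusted p = 0.00134, limma), and 7 of 49 other tumours lay within or below the range of subline 18. The probe set 1438759_x_at read 9.12, 9.10 and 9.00 with a difference of -0.22 ± 0.08, and 1449076_x_at differed by 0.18 ± 0.08, neither called. Without tumour 2 the adjusted p was 0.122, in the 2-group fit it was 0.999, and over 28 alternatives it ran from 1.37e-05 to 1 (limma).

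No gene of methionine salvage and polyamine synthesis was called on its brightest probe set. Of 14 measured genes, with Adi1 itself on 1438759_x_at among them, 5 differences were positive, and the median was -0.04. Mat2b, the regulatory subunit of methionine adenosyltransferase, read 9.81, 9.90 and 10.03, against 9.52 to 10.36, with a difference of -0.14 ± 0.10 (adjusted p = 0.999, limma). None of 22 probe sets of the 9 measured neighbours of Adi1 on chromosome 12 had an unadjusted p under 0.05.

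Uqcr10, a small subunit of respiratory complex III, was lower on 1 of 3 probe sets. On 1434340_at the tumours read 7.01, 6.83 and 6.94, against 6.80 to 8.27 with a median of 7.31, and 9 of 49 other tumours lay at or below the highest of them. Subline 18 had the lowest mean, 6.93 ± 0.09, in a set of 9 sublines that reached up to 7.19, and the other 8 stood at 7.83 to 8.09. The difference was -0.59 ± 0.10 (adjusted p = 0.00404, limma). Within the lower set, subline 9 at 6.98 ± 0.17 and subline 7 at 6.99 ± 0.12 did not separate from subline 18. The other Uqcr10 probe sets differed by -0.16 ± 0.06 and -0.08 ± 0.09, neither called. Without tumours 1, 2 and 3 the adjusted p was 0.0539, 0.189 and 0.138, in the 2-group fit 0.999, and over 28 alternatives 1.69e-05 to 0.999 (limma).

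No subunit or assembly factor of complex III was called on its brightest probe set. Of 14 measured genes, with Uqcr10 itself on 1424364_a_at among them, 5 had a positive difference, and the median was -0.02. Uqcrb, another small subunit, read 13.36, 13.41 and 13.27, against 13.05 to 13.51, and Uqcrc1, a core subunit, read 11.54, 11.33 and 11.45, against 10.87 to 11.70. Their differences were 0.13 ± 0.05 and 0.13 ± 0.07, with adjusted p values of 0.999 in limma. Among the 10 measured neighbours of Uqcr10 on chromosome 11, 1 of 19 probe sets had an unadjusted p under 0.05, for Nipsnap1, at -0.27 ± 0.13.

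Pop4, a protein subunit of ribonucleases P and MRP, was lower on its single probe set. On 1448419_at subline 18 read 7.62, 7.57 and 7.42, against 7.44 to 8.48 with a median of 8.03, and 1 tumour each of sublines 16 and 20 lay in its range. The subline means ran from 7.54 ± 0.11 in subline 18 through 7.63 to 7.67 in sublines 20, 16, 14 and 13 to 8.34 in subline 7. The difference was -0.45 ± 0.08 (adjusted p = 0.00859, limma). Without tumours 1, 2 and 3 the adjusted p was 0.0622, 0.122 and 0.661, in the 2-group fit 0.999, and over 28 alternatives 5.9e-05 to 1 (limma). Its neighbour on chromosome 7, Uri1, a prefoldin-like protein, read 7.48, 7.47 and 7.33 on 1433913_at, against 7.27 to 8.05 with a median of 7.61. That difference was -0.21 ± 0.06 (adjusted p = 0.658, limma).

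On array B the called probe set 1459253_at read 8.52, 9.01 and 8.37, against 5.30 to 8.93 with a median of 6.04. The difference was 1.94 ± 0.28 (adjusted p = 0.000793, limma), a fold of 3.83. The tumours of subline 18 were in the upper group, and 3 of 50 others reached them, 2 of subline 21 and 1 of subline 11. Sublines 21 (8.57 ± 0.49, SD, n = 3), 11 (8.16 ± 0.73, SD, n = 2) and 14 (8.06 ± 0.21, SD, n = 3) followed, while 10 sublines lay between 5.62 and 6.06. Without tumour 2 the adjusted p was 0.122, in the 2-group fit 0.998, and over 29 alternatives 1.18e-06 to 0.998 (limma). With all 56 arrays B it was still called, at 0.00177.

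**Figure D2:**
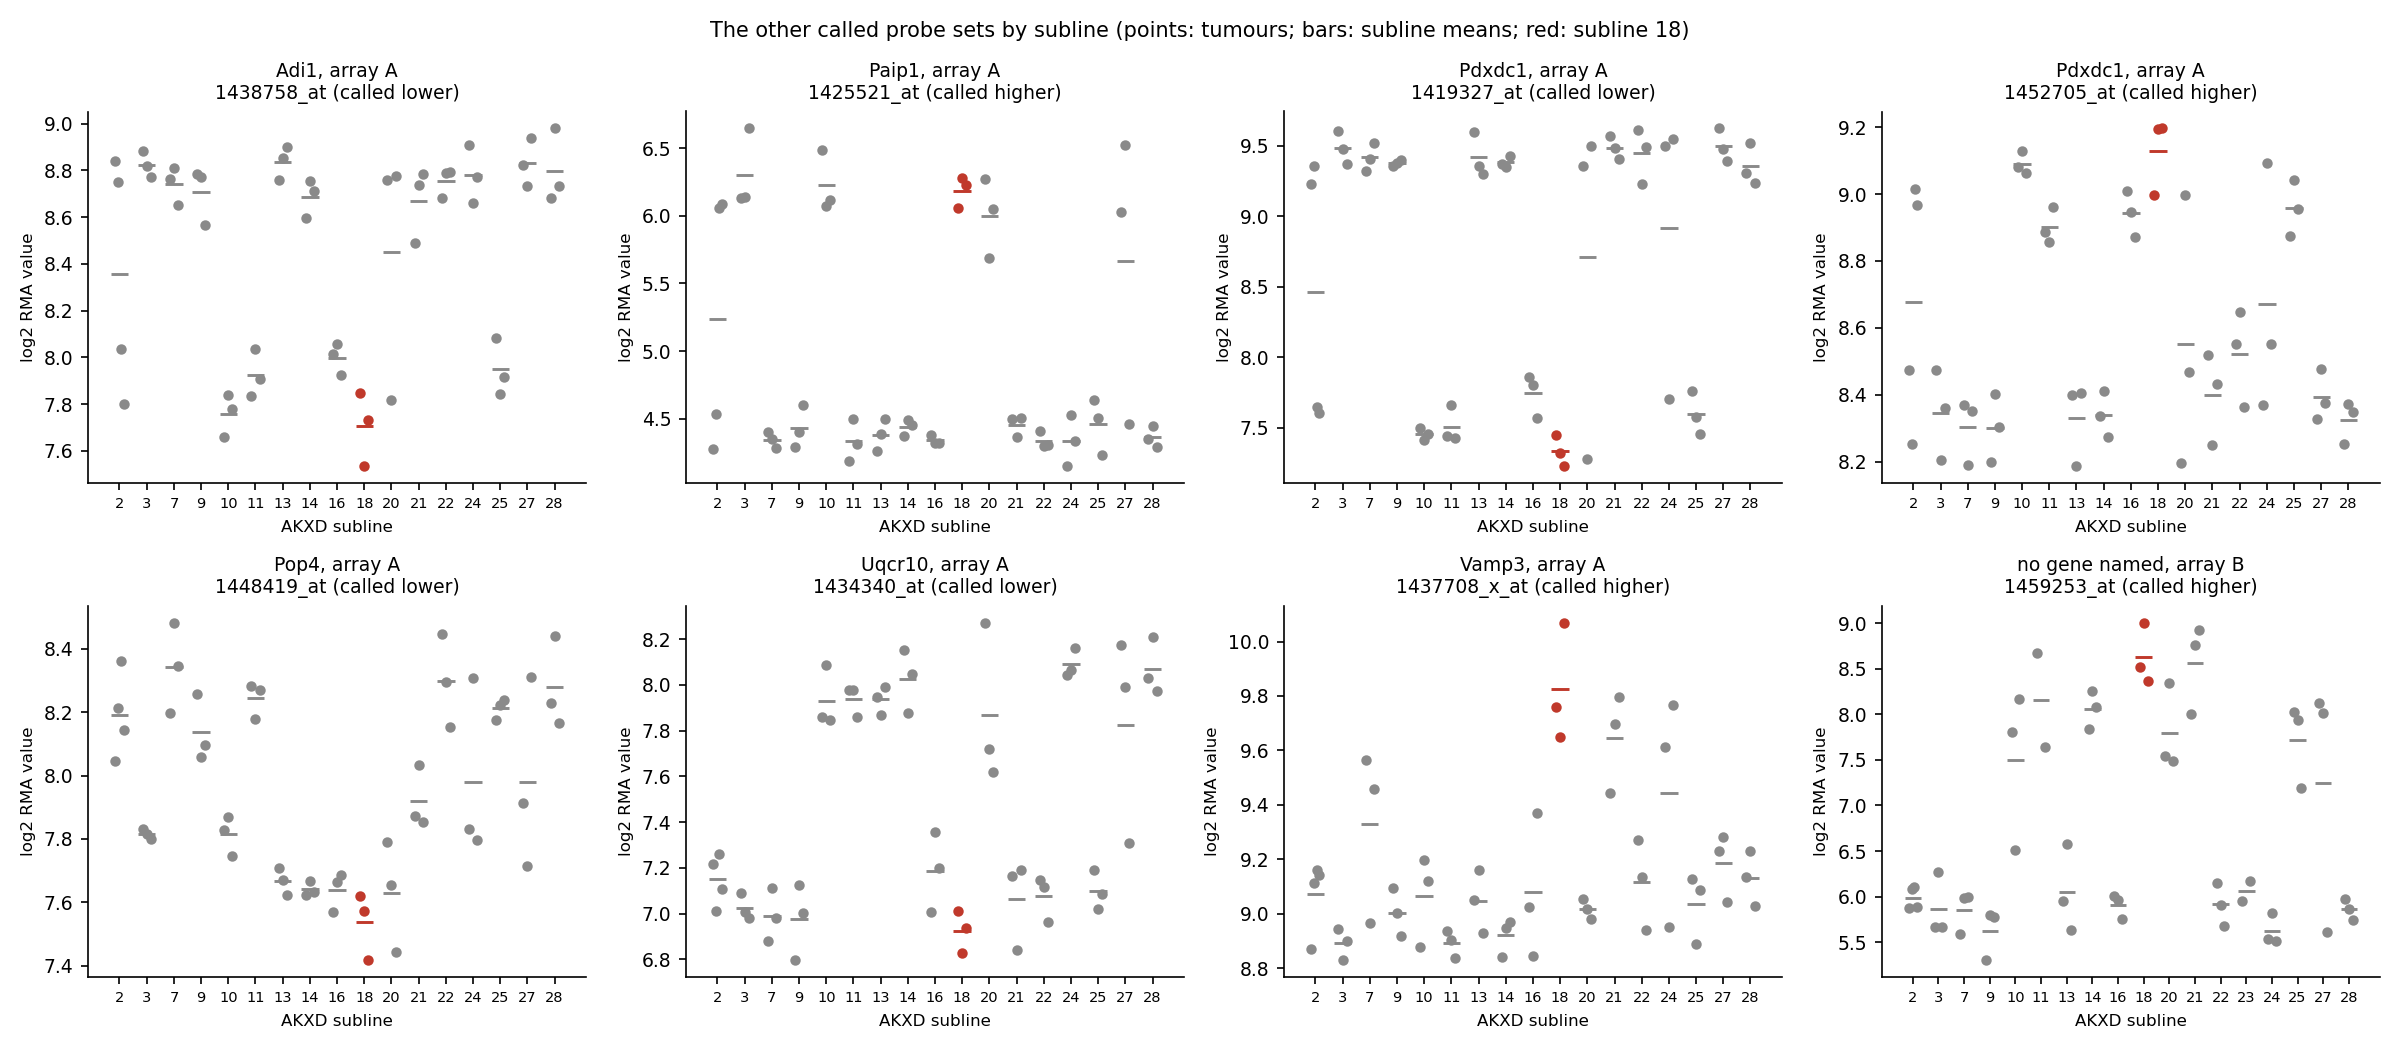
Log2 RMA value (vertical axis) on the called probe sets other than those of Suz12, by AKXD subline (horizontal axis), with tumours as points, subline means as bars and subline 18 in red. Subline 18 is at the low level with sublines 10, 11, 16 and 25 for Adi1 and for Pdxdc1 1419327_at, and at the high level with sublines 3, 10 and 20 for Paip1.

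On array B, 3 probe sets (0.0133%) had the tumours of subline 18 outside every other tumour, all below, and none was called. One reads 1700066B19Rik, at 6.49, 6.48 and 6.57 against 6.62 to 7.08 with a median of 6.79, a difference of -0.28 ± 0.06 (adjusted p = 0.220, limma). The other two, 1437980_at and 1446017_at, have no single gene in the annotation and are named after their values were seen. They read 4.02, 3.94 and 4.10 against a lowest value of 4.11 elsewhere, and 4.17, 4.20 and 4.16 against 4.20. These margins were small, and the adjusted p values were 0.496 and 0.839 in limma. The highest values elsewhere were 4.51 and 4.53. On both probe sets every tumour read under the upper quartile of the bacterial controls of its array, which was 4.75 or more.

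**Figure D3:**
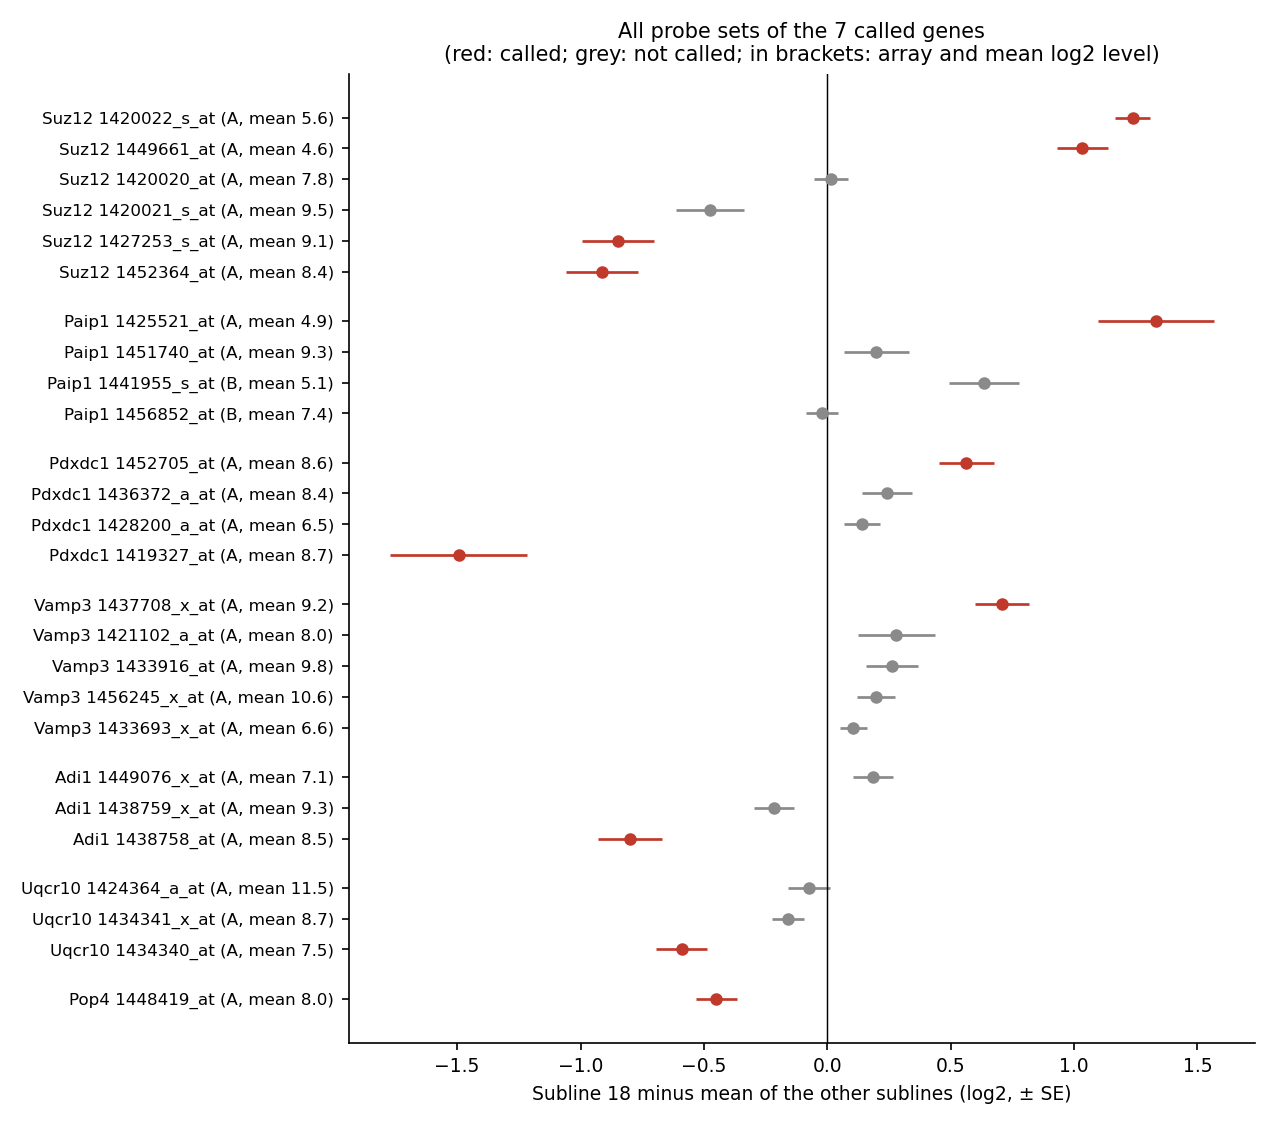
Difference between subline 18 and the mean of the other sublines (horizontal axis, log2, bars are standard errors) for the 26 probe sets of the 7 called genes, called ones in red. Suz12 and Pdxdc1 have called probe sets on both sides of 0, and 15 of 26 probe sets were not called.

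Next in rank on array A were 8 genes that did not pass the test. AI506816 read 9.08, 8.95 and 8.80, against 8.76 to 10.16 with a median of 9.68, and Kifc3, a kinesin motor of epithelial junctions, read 8.77, 9.08 and 8.98, against 8.91 to 10.05 with a median of 9.36. Their differences were -0.62 ± 0.13 and -0.41 ± 0.09, with an adjusted p of 0.0731 for each in limma. AI506816 had a low level in subline 18 that sublines 9, 13 and 3 shared, at 8.96, 9.00 and 9.07. Slc4a2, an anion exchanger, read 10.05, 9.93 and 9.97 against up to 10.01 elsewhere (0.35 ± 0.08, adjusted p = 0.0884, limma). Mtmr9, a catalytically inactive myotubularin, read 9.22, 9.23 and 9.38 against a median of 8.31, with subline 10 above it at 9.60 and subline 28 beside it at 9.17 (0.78 ± 0.18, adjusted p = 0.117, limma). The other 4 were Fam126a at 0.31 (adjusted p = 0.0818, limma), Cyp39a1, an oxysterol hydroxylase, at -0.42 (0.0884), the prothymosin-like Ptms at 0.36 (0.0884) and the noncoding Snhg16 at -0.41 (0.113). Beyond 1700066B19Rik, the next genes of array B were Trmt9b at -0.29, Rapgef5 at 0.55, Atp10b at 0.47, Sdha at 0.41, Zfp24 at 0.32, Trim27 at -0.29 and Sdr16c5 at -0.20, with adjusted p values of 0.220 to 0.521 in limma.

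No gene of any pathway or cell type list was called on its brightest probe set. Of 370 genes on the 28 lists, limma called 0 on that probe set, and 17 (4.59%) had an unadjusted p under 0.05, 9 higher and 8 lower. The 370 include called genes, among them Suz12, Uqcr10 and Adi1, whose called probe sets are not their brightest. That share lies between those of all probe sets of arrays A and B. In whole-tumour RNA, fewer cells of a type and less RNA per cell cannot be told apart.

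Genes of skeletal muscle, a tissue that can be taken along with a tumour, had a wide range over the 3 tumours. All 14 measured skeletal muscle genes had a positive difference, with a median of 0.95, and none was called. Every one of the 14 was highest in tumour 1 and lowest in tumour 2. Ckm, muscle creatine kinase, read 12.57, 9.93 and 10.74, against 7.55 to 13.07 with a median of 10.07, and Myh1, a fast myosin heavy chain, read 11.14, 8.80 and 9.33, against 4.61 to 11.28 with a median of 8.22. The differences were 0.97 ± 0.94 and 1.66 ± 1.12 (adjusted p = 0.999 each, limma). As the median of the list, measured from the other sublines' mean, tumours 1, 2 and 3 stood at 2.38, -0.16 and 0.56, against -2.58 to 2.85 in the other tumours. Without tumour 1 the median difference was 0.22.

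Adipocyte genes ordered the tumours differently. The list stood at 0.54, -0.88 and 1.33 in tumours 1, 2 and 3, and tumour 2 was the lowest for 11 of 12 genes. Adipoq, which encodes adiponectin, read 9.49, 7.01 and 10.73, against 5.34 to 11.40, with a difference of 0.31 and an unadjusted p of 0.704. Fatty acid synthesis also stood highest in tumour 3, at 0.49, above the other 49 tumours, whose highest was 0.48. In that tumour Acaca, acetyl-CoA carboxylase, read 8.81 and Acly, ATP citrate lyase, read 12.17, each above every other tumour. In tumours 1 and 2 Acaca read 7.95 and 7.69. Without tumour 3 its difference of 0.31 became -0.02.

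Milk protein genes had mostly positive differences, none of them called. Of 14 measured genes 12 had a positive difference, with a median of 0.39, and tumour 2 was the lowest for 10 of 14. Lalba, alpha-lactalbumin, read 14.36, 14.58 and 14.57, against 11.57 to 14.60 with a median of 14.06, and its difference was 0.63 ± 0.30 (adjusted p = 0.999, limma). Wap, whey acidic protein, read 12.49, 10.50 and 13.47, against 9.87 to 14.00. The oxidoreductase Xdh went the other way, at 10.52, 9.81 and 10.69, against 10.09 to 11.24, a difference of -0.40 ± 0.14 (adjusted p = 0.999, limma).

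Interferon-stimulated genes spread the 3 tumours of subline 18 apart. These genes are induced through type I and type II interferon receptors and serve antiviral defence. Over the 15 measured genes the median difference was -0.08, and none was called. Tumour 2 was the highest of the 3 for all 15 genes and tumour 3 the lowest for all 15. Ifit1, which binds viral RNA caps, read 8.44, 11.01 and 7.56, against 7.41 to 10.42 with a median of 9.32. Irf7, the transcription factor of the interferon response, read 9.14, 11.51 and 8.49, against 8.39 to 11.21 with a median of 9.79. Oasl2 read 7.94, 10.23 and 6.66, against 6.48 to 10.08, and Usp18, a protease that removes Isg15, read 7.75, 9.87 and 7.19, against 6.55 to 9.56. On 11 of 15 genes tumour 2 lay above every tumour of the other sublines, and on 4 of 15 tumour 3 lay below every one. The list stood at -0.41, 1.24 and -0.97 in tumours 1, 2 and 3 on array A, against -1.01 to 1.05. A difference between single tumours has no replicates and no test. The share of all probe sets on which a single tumour lay outside all other sublines is not given here.

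Xaf1, an interferon-induced apoptosis factor measured on array B, did not share the pattern. It read 7.74, 7.87 and 7.73, close together and low, against 7.61 to 10.74 with a median of 8.79. Its difference of -1.01 ± 0.27 was not called (adjusted p = 0.616, limma), and 9 of 50 other tumours lay at or below the highest tumour of subline 18.

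**Figure D4:**
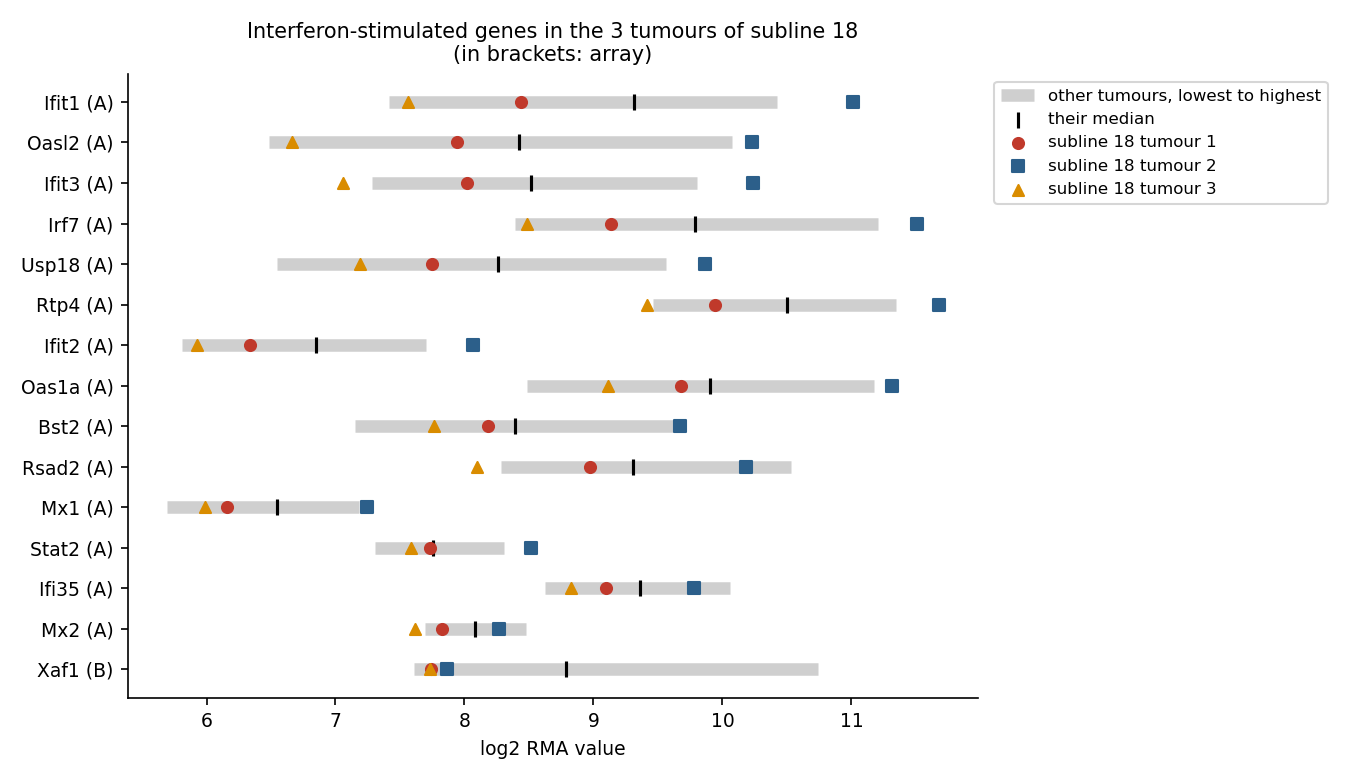
Log2 RMA value (horizontal axis) of 15 interferon-stimulated genes in the 3 tumours of subline 18 (coloured points), with the range of the other tumours as a grey bar and their median as a black tick. Tumour 2 lies above the bar for 11 of 15 genes, tumour 3 is the lowest of the 3 for each gene, and for Xaf1 the 3 tumours lie together near the low end.

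Antigen presentation genes followed tumour 2 on a smaller scale. Of 13 measured genes of MHC class I and antigen processing, 12 were highest in tumour 2. B2m, the light chain of class I molecules, read 12.20, 13.74 and 12.45, against 12.08 to 14.00, and Tap1, a peptide transporter, read 8.66, 9.86 and 8.46, against 8.12 to 9.67. For Tap1 and H2-K1 tumour 2 lay above every other tumour. Without tumour 2 the difference of Tap1, 0.21 with all 3 tumours, was -0.23. None of the 13 was called, and their median difference was 0.06.

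No gene of the immune and stromal cell lists was called by limma. The median differences were 0.01 for T cells, 0.05 for B and plasma cells, 0.02 for macrophages, 0.00 for neutrophils, 0.03 for MHC class II, 0.14 for endothelial cells and 0.25 for fibroblasts and matrix. B and plasma cell genes stood at 0.20, -0.31 and 0.28 on array A, so that tumour 2 lay below the other 49 tumours, whose lowest was -0.26. Cd79a, part of the B cell receptor, read 7.60, 6.21 and 7.30, against 6.23 to 8.66 with a median of 6.50. Col5a1, a fibrillar collagen chain, read 9.60, 9.93 and 9.88, against 8.68 to 10.16, a difference of 0.29 ± 0.13 (adjusted p = 0.999, limma).

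Salivary gland and skin markers had mostly negative differences. Salivary gland genes, a site where the MMTV promoter is also active, had negative differences for 8 of 9 genes, with a median of -0.24. Over all probe sets of array A, which measured these 9 genes, 42.8% of the differences were positive. Dcpp1, a secreted salivary protein, read 6.16, 5.93 and 5.88, against 5.74 to 8.97 with a median of 7.09, a difference of -0.98 ± 0.42 (adjusted p = 0.999, limma). Skin and hair keratin genes had a median of -0.15, basal and myoepithelial genes 0.00, and luminal epithelium genes 0.08. Elf5, a transcription factor of milk-secreting epithelium, read 12.69, 12.50 and 12.81, against 11.42 to 12.63 with a median of 12.36, so that tumours 1 and 3 lay above every other tumour. Its difference was 0.33 ± 0.12 (adjusted p = 0.999, limma).

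Growth, metabolism and signalling lists had medians near 0. Median differences were 0.00 for cell cycle genes, -0.02 for hypoxia and glycolysis, 0.02 for sterol synthesis, 0.11 for fatty acid synthesis, 0.06 for heat shock and endoplasmic reticulum chaperones, 0.02 for immediate early genes and 0.02 for poly(A) binding and translation initiation. They were -0.05 for proposed inherited metastasis modifiers and -0.02 for middle T antigen signalling partners. Car9, a hypoxia-induced carbonic anhydrase, read 7.53, 8.88 and 7.44, against 7.72 to 10.01 with a median of 8.71, a difference of -0.83 ± 0.33 (adjusted p = 0.999, limma). Dnajb9, a cochaperone of the endoplasmic reticulum, read 10.21, 10.71 and 10.41, against 9.60 to 10.72, and Hspa5, the chaperone BiP, read 12.75, 12.80 and 12.79, against 12.11 to 12.92. Their differences were 0.33 ± 0.12 and 0.20 ± 0.09 (adjusted p = 0.999 each, limma).

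**Figure D5:**
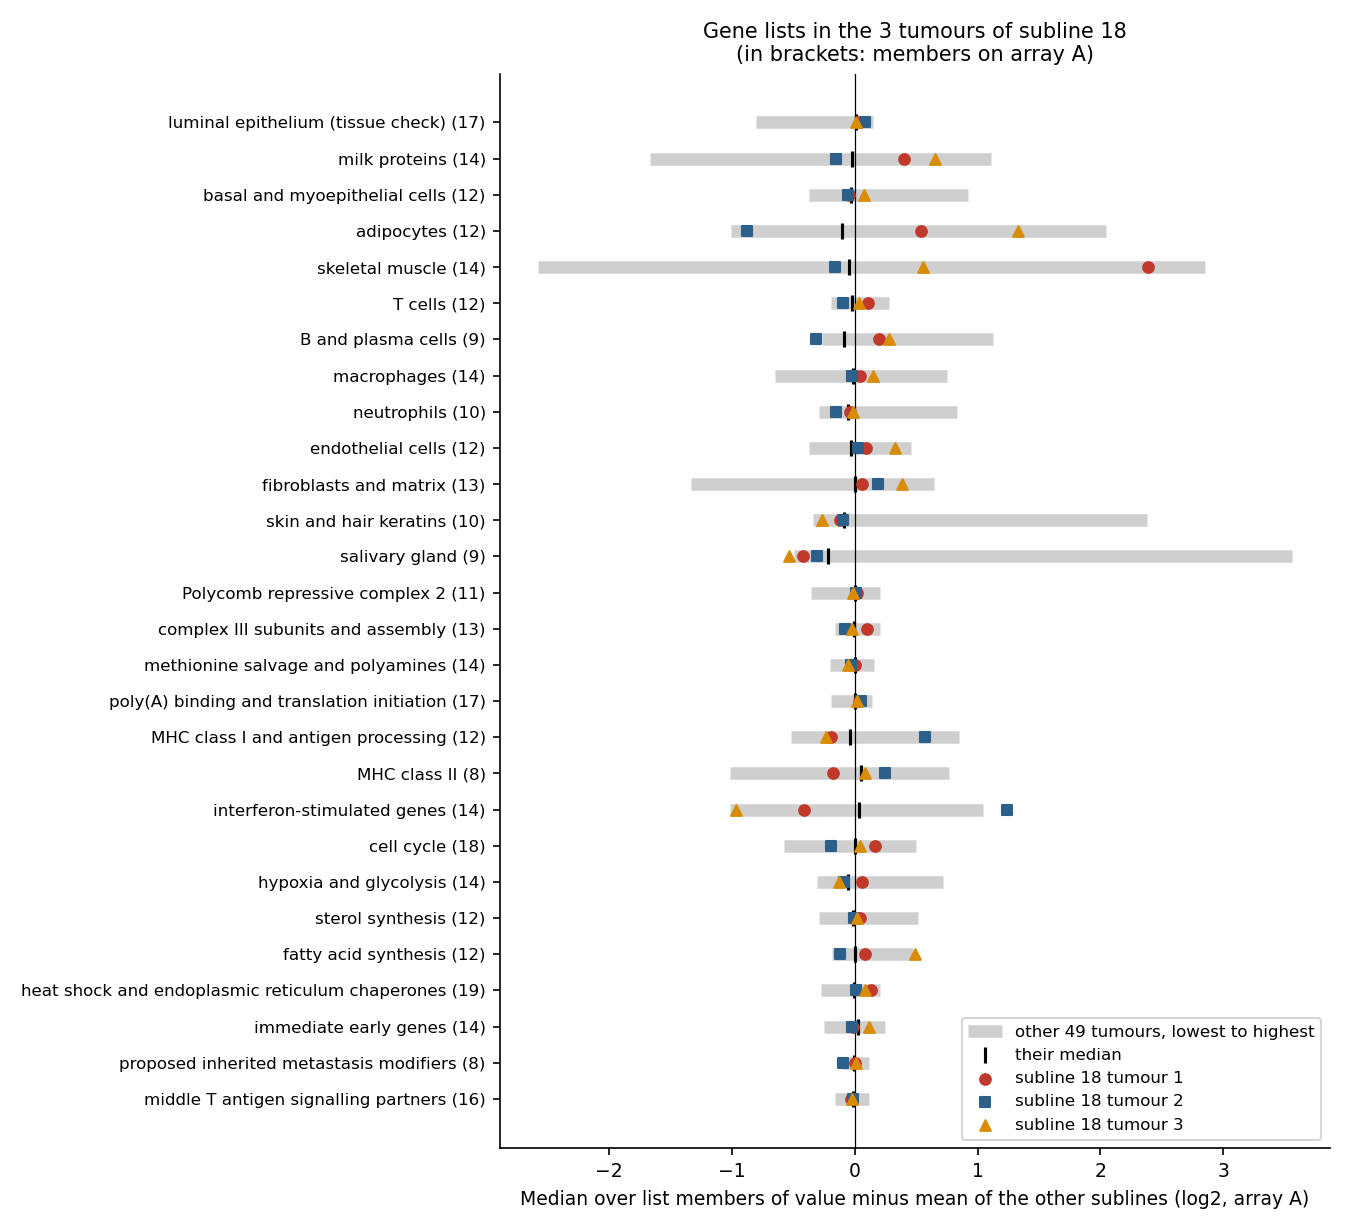
Median over the members of each gene list on array A of the log2 value minus the other sublines' mean (horizontal axis), for the 3 tumours of subline 18 (coloured points), with the range of the other 49 tumours in grey and their median as a tick. The tumours spread most on skeletal muscle, adipocyte and interferon-stimulated genes, and a tumour lies outside the grey bar on 4 of 28 lists.

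Across all probe sets the tumours of subline 18 were among the more alike of any subline on array A. The median SD over probe sets was 0.0917, which ranked 16 of 17 from the widest, and on array B it was 0.100, which ranked 12 of 18. Correlations between its tumours were 0.988 to 0.995 on array A and 0.989 to 0.992 on array B. With tumours of the other sublines they were 0.967 to 0.995 on array A and 0.968 to 0.994 on array B. The medians of these were 0.989 on each, so by correlation its tumours did not stand apart from the others.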

How the data were processed

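Total RNA from 56 tumours was labelled with biotin and hybridised to both array types. The deposited log2 values were made by the authors with RMA, per the submitters' processing notes. Its version, the build and the set of arrays normalised together were not given in the sources used here. Each of the 2 deposited tables was used as given; 64 control probe sets were set aside, and columns of other series numbered 0. Gene names came from the platform annotation, updated through RefSeq (GRCm38.p6), which served for names and gene order. On array A 20380 probe sets had 1 symbol, 691 several and 1555 none, and on array B 14661, 245 and 7605.

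limma 3.58.1 (R 4.3.3) fitted 1 mean per subline on the kept arrays (35 residual degrees of freedom on each array type) and compared subline 18 with the other sublines' means averaged with equal weight, with Benjamini-Hochberg adjustment over all probe sets of an array type. A called probe set has an adjusted p under 0.05. Tables were made with Python 3.11.15. "At least" folds raise each array to the upper quartile of its bacterial controls. The number of arrays limits the precision. On array A the differences of AI506816 (-0.62 ± 0.13) and Mtmr9 (0.78 ± 0.18) were not called. What share of true differences the comparison recovers in the tumours was not tested. Simulated data had independent noise and no differences among the other sublines, unlike the tumours. There 86% of probe sets changed by 0.5 (log2) were recovered on array A and 92% on array B, with 4 and 16 false calls.

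Named genes were those called, with all their probe sets, the 8 next in rank on each array, and 2 members of each of 28 lists by p, besides Uqcr10, Adi1, Pdxdc1, Suz12 and Paip1; other list members were named after their values were seen. Members and lists were chosen with earlier results of these data known. Alternatives were all arrays, a replicate block, quantile and median scaling, leaving out dim probe sets, array weights, a trended robust prior, a 2-group fit, composition scores, and leaving out each tumour of subline 18 and each other subline.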

Additional observations from a re-analysis of the deposited data

Results flagged for a closer look

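On the called probe sets, groups of at least 4 kept tumours were searched for a tumour far from the rest, which only subline 2 has, giving 12 groups. In subline 2, 1 tumour stood apart on the Vamp3 probe set 1437708_x_at: its gap to the nearest of the other tumours was 0.837 of the whole range, with the 4 values at 8.87 to 9.16. Chance alone gives such a gap in about 5% of groups.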

How the results depend on the processing

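On array A the 11 calls became 0 with all arrays, 5 in the 2-group fit and 103 with array weights, which included the 11. On array B the single call became 0 in the 2-group fit and 8 with array weights. Leaving out 1 tumour of subline 18 gave 4 to 5 calls on array A and 0 to 1 on array B, and leaving out 1 other subline gave 10 to 19 and 1 to 3. The cause was not tested. The most came without subline 2, and array B had 2 without subline 24. With the replicate block 12 and 1 probe sets were called, including the 11 and the 1. Same-numbered tumours of different sublines had a median residual correlation of 0.000675 on array A and 0.0156 on array B. Single pairs ran from -0.593 to 0.482 and from -0.553 to 0.515. The array closest to each carried the same number for 11 of 52 arrays A and 19 of 53 arrays B. Whether some same-numbered arrays share a batch was not tested. Quantile normalization, median centring, the trended robust prior and composition scores each kept the 11 calls and the 1. Leaving out the dimmer probe sets gave 8 and 1. Both higher Suz12 probe sets and Paip1 1425521_at were among the dim ones left out, so they were not tested there.

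No called probe set changed direction under any alternative run. Differences that turned sign were all uncalled. With all arrays these were Uqcr10 1424364_a_at (0.0285) and Suz12 1420020_at (-0.00285), and with composition scores Paip1 1456852_at (0.00158). Leaving out 1 tumour of subline 18 at a time gave -0.0443 to 0.00484 for that probe set, -0.00747 to 0.0298 for Suz12 1420020_at, -0.0526 to 0.473 for Thbs2, -0.226 to 0.475 for Tap1 and -0.0205 to 0.368 for H2-D1, the last 4 turning without tumour 2. It gave -0.284 to 0.736 for Retn and -0.0187 to 0.541 for Acaca, which turned without tumour 3. Suz12 1420020_at turned without subline 7 (-0.00114) or 24 (-5.6e-05).

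The median differences of the lists, none of them tested, moved by more than the spread between replicates in 24 of 812 recomputations, over 11 lists: 8 with all arrays, 2 without the dimmer probe sets, 1 with array weights, 11 without 1 tumour of subline 18 and 2 without another subline. With all arrays the medians of complex III (0.0610), methionine salvage (0.0284) and the middle T antigen partners (0.0508) turned positive, and that of the salivary gland list was -0.524 without the dimmer probe sets. Lists that vary widely among tumours moved within that spread: interferon-stimulated genes ran from -0.739 without tumour 2 to 0.362 without tumour 3, adipocytes from -0.188 without tumour 3 to 0.882 without tumour 2, and milk proteins from 0.114 without tumour 3 to 0.549 without tumour 2. The cause was not tested.

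With 3 tumours, small differences could not be told from the spread. Under the bacterial controls, differences are bounds.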
